A study of Mus musculus with 4 samples.

Results

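The genes described here encode the nuclear subunits of the mitochondrial respiratory chain and of ATP synthase, with their isoforms and the complex I assembly factors that share their name stem. They were chosen by gene symbol, without any measured value in the rule, though earlier results of these data were known. The rule took symbols that start with Nduf, Uqcr or Atp5, or with Cox4, Cox5, Cox6, Cox7 or Cox8, and the symbols Sdha, Sdhb, Sdhc, Sdhd, Cycs and Cyc1. This gave 92 genes with 184 probe sets, of 18193 named genes and 45101 probe sets on the array. The samples were bone marrow cells of female C57Bl/6J mice aged 12 weeks, measured on 4 days of a culture towards osteoclasts, the multinucleated cells that resorb bone. The day 1 sample was marrow on the day it was taken, before any differentiation. The day 4 sample had spent 3 days in a-MEM with 10% FBS and 10 nM vitamin D3. The day 5 and day 7 samples, at 4 and 6 days of differentiation in their labels, kept 10% FBS and 10 nM vitamin D3 and also had 20 ng/ml MCSF, which sustains macrophage precursors, and 40 ng/ml RANKL, the cytokine that drives osteoclast formation. All 4 samples are labelled primary osteoclast, and the labels say neither how many mice were pooled nor whether the arrays follow 1 culture. Each group held 1 array, so nothing could be tested and the values describe these 4 arrays alone.

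The respiratory chain passes electrons from NADH (complex I) and succinate (complex II) through ubiquinone to complex III, cytochrome c and complex IV, where oxygen is reduced. Complexes I, III and IV pump protons across the inner mitochondrial membrane, and ATP synthase lets them flow back through its membrane part, Fo, to drive ATP synthesis in its catalytic part, F1. Complexes I, III and IV and ATP synthase also contain subunits encoded in mitochondrial DNA, which the selection by symbol leaves out. Osteoclasts are rich in mitochondria and acidify the bone surface with V-ATPase, a proton pump that consumes ATP.

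A signal below 32.4, the median of all values, was treated as background and set to that floor before a difference was taken. Of the 184 probe sets, 171 exceeded the floor on 1 array or more and 159 on all 4. Each gene was followed through the probe set with its highest mean signal. By that choice 87 of the 92 genes were above the floor on all 4 arrays and 1, Ndufa4l2, on day 5 alone. The other 4 were below it throughout: Ndufb4 (highest signal 16.8), Cox4i2 (23.7), Cox7b2 (1.27) and Cox8b (6.97), the last 3 being tissue isoforms of complex IV. Ndufb4, a subunit of complex I, had only 1 probe set, which gives little measure of the gene. A mean signal of 1000 or more was reached by 74 of the 92 genes.

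The cells in the dish differed between the arrays. Of 10 osteoclast markers, 6 were above the floor on day 1, 9 on day 4 and 10 on days 5 and 7, and their summed signal was 9542, 28748, 47098 and 55556. The highest of them on day 1 were Mmp9 (4173) and Acp5 (2604). Itgb3, with 1156, 1257, 677 and 610, was the only one of the 10 that was lower on day 7 than on day 1. Calcr, Dcstamp, Ocstamp and Oscar were below the floor on day 1, in the sample that is nevertheless labelled primary osteoclast. Of 8 measured erythroid markers, 7 were above the floor on day 1 and 1 (Epor) on each later array, and their sum was 18323, 186, 175 and 121. The sum of 10 neutrophil markers was 114176, 72602, 40642 and 6176 in the same order, that of 7 B cell markers 5039, 1930.2, 618 and 245, that of 6 platelet markers 16090.0, 20554, 14758 and 8292 and that of 9 stromal and osteoblast markers 2891, 30307, 39685 and 26689.7. Most of the platelet sum came from Pf4, with 8628, 10990, 11871 and 8027. The other platelet markers lost most of their signal between days 1 and 7. Ppbp went from 4809 to 79.3, Itga2b from 1168 to 116 and Tubb1 from 671 to 33.5. Gp9 (326 to 10.1) and Gp5 (488 to 25.6) ended below the floor. The 7 macrophage markers were above the floor on every array, with sums between 30896 and 54574. The part of these shifts in any result below was not tested. The signals of 18 spiked control probe sets had a median log2 difference of -0.18 and an SD of 0.17 between days 7 and 1. The ratio of 3′ to 5′ probe set signals lay between 0.785 and 0.823 for Gapdh and between 1.13 and 1.21 for Actb.

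Nearly the whole gene set was higher at the end of the culture than in fresh marrow. On day 7, 84 of 87 measured members had a higher signal than on day 1, against 50.3% of all 11967 measured genes. At least 1.5-fold higher were 56 of the 87 (24.3% of all genes) and at least 2-fold higher 25 (12.7% of all genes). At least 1.5-fold lower were 3, Cox6a2, Cox6b2 and Cox7c (25.9% of all genes), and 1 of them, Cox6a2, was at least 2-fold lower (16.2% of all genes). The median member was 1.71-fold higher, a log2 difference of 0.77 against 0.01 for all genes, and the middle part of the members, between the quartiles, ran from 1.38-fold to 2.08-fold. Fewer cells of a type and less RNA per cell cannot be told apart in such bulk samples. Among the 74 members with a mean signal of 1000 or more, all 74 were higher on day 7, 50 of them at least 1.5-fold and 21 at least 2-fold. The shares among all genes of that signal were 62.1%, 29.3% and 13.2%. The median log2 difference was 0.81 for these members and 0.22 for all genes of that signal. The scaling of the arrays bears on these sizes: quantile normalization moved the median of all genes to 0.17 and that of the members to 0.65, and median scaling moved them to 0.14 and 0.91. Relative to all genes the members' median was thus 0.77 without further scaling, 0.48 with quantile normalization and 0.78 with median scaling, and 84 of 87 members were higher under each.

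The members also shared their course. Of the 88 genes above the floor on at least 1 array, 70 had a higher signal at every step from day 1 to 4, 5 and 7, or 79.5%, against 10.9% of 12438 genes. Cox7c alone was lower at every step (2 of the 3 steps turned after quantile normalization), which 16.3% of all genes were. The highest signal lay on day 7 for 76 members (19.4% of all genes), on day 5 for 9 (29.7%), on day 1 for 3 (34.9%) and on day 4 for 0 (15.9%). Among genes with a mean signal of 1000 or more, 66 of 74 members and 19% of all genes were higher at every step. After quantile normalization 56 of the 88 were higher at every step. A peak on day 5 depends on the scaling for Cox5a, Cox6c, Cycs, Ndufaf2, Ndufb1 and Ndufb6, which were higher on day 7 than on day 5 after median scaling. The summed signal of the member probe sets was 289707, 360643, 427833 and 471659 on days 1, 4, 5 and 7, which was 1.55%, 1.90%, 2.12% and 2.45% of the summed signal of each array.

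**Figure D1:**
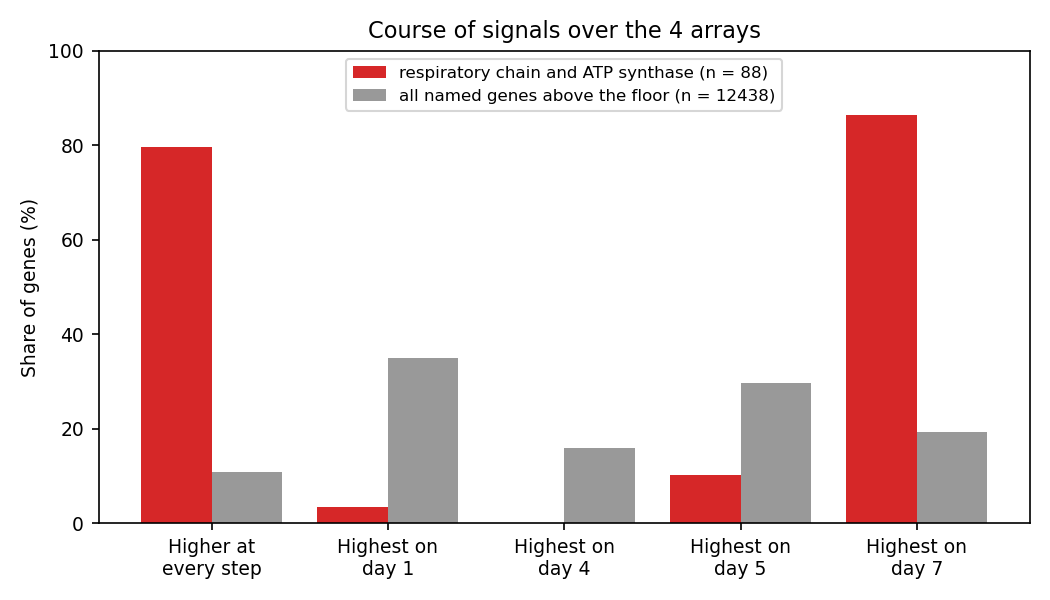
Share of genes, in percent, by the course of their signal over the 4 arrays. Red bars are the 88 respiratory chain and ATP synthase genes above the floor on at least 1 array and grey bars all 12438 such genes: 70 members were higher at every step and 76 had their highest signal on day 7, against 10.9% and 19.4% of all genes.

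Higher signals were found at each of the 3 steps, before and after RANKL was added. Between days 1 and 4, before MCSF and RANKL were added, the median log2 difference of the members was 0.33 (0.06 over all genes) and 81 of 87 were higher (54% of all genes). At least 1.5-fold higher were 16 members (20.2% of all genes) and at least 2-fold higher 3, Atp5md, Atp5o and Ndufaf4 (10% of all genes), while Cox6a2 and Cox6b2 were at least 2-fold lower (8.65% of all genes) and no other member was 1.5-fold lower (17.1%). Counts by size were thus no higher among the members than among all genes at this step, and the gap lay in the share that was higher by any amount. At a mean signal of 1000 or more the medians were 0.33 for members and 0.14 for all genes. From day 4 to day 5, the first day with MCSF and RANKL, the median was 0.26 (0.06 over all genes). For a mean signal of 1000 or more it was 0.25 for members and 0.12 for all genes. Of 88 measured members 81 were higher (55.7% of all genes), 6 at least 1.5-fold (9.7%) and 0 at least 2-fold (2.02%). Cox6a2 was 2.65-fold lower, and 1.5-fold and 2-fold lower signals were found for 10.4% and 4.04% of all genes. Small differences of this step depend on the scaling: after quantile normalization 67 of the 88 were higher, with a median of 0.13, against 53.6% and 0.04 for all genes, a gap of 0.09 in place of 0.20, and the 16 members whose direction turned included Sdha, Atp5g3, Cox4i1 and Ndufs8.

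From day 5 to day 7 the median of the members was 0.15 while that of all genes was -0.11. With a mean signal of 1000 or more the medians were 0.15 for members and -0.04 for all genes. Of 88 members 78 were higher, against 35.4% of all genes. At least 1.5-fold higher were 3 of the 88, a share close to that of all genes (3.48%). These were Cox7a1, Cox6a2 and Cox6b2, isoforms of complex IV with low signals, the first and second of them at least 2-fold higher (0.853%). Of the 74 members with a mean signal of 1000 or more, 0 were 1.5-fold higher or lower. Ndufa4l2, above the floor on day 5 alone, was at least 1.51-fold lower (1.5-fold lower were 14.2% of all genes), and 0 members were 2-fold lower (5.84%). Median scaling moved the members' median to 0.33 and that of all genes to 0.06, so that the gap of 0.27 between them was the same, and 7 of 88 members instead of 3 were then at least 1.5-fold higher, with 6.75% of all genes at that size, a share close to that of the members, and 0 instead of 1 lower. After quantile normalization the medians were 0.19 and 0.03, a gap of 0.15. Over both steps, day 7 against day 4, the members' median was 0.44 (-0.09 over all genes). With a mean signal of 1000 or more these medians were 0.44 and 0.08. Of 87 members 84 were higher (42.9% of all genes), 23 at least 1.5-fold (9.7%), and Cox7a1 and Ndufaf6 at least 2-fold (3.12%). None of the 87 was 1.5-fold or 2-fold lower (20.3% and 9.12% of all genes). The count of 23 became 15 after quantile normalization, where 14.5% of all genes reached that size, and 44 after median scaling, where 15.5% did. The excess over all genes in this count was therefore small after quantile normalization.

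**Figure D2:**
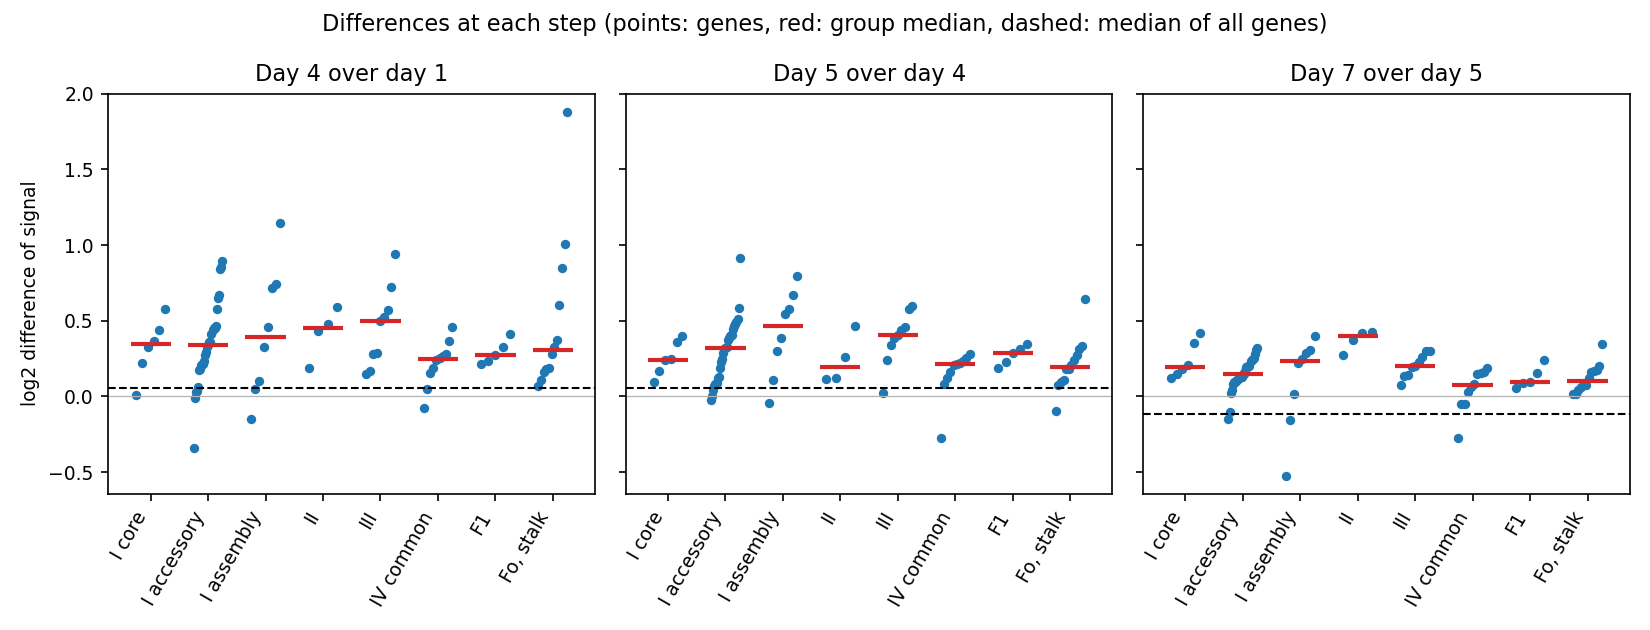
Log2 difference of signal for each gene at the 3 steps, by complex. Points are genes above the floor on both arrays, red bars group medians and dashed lines the median of all genes; complex II has a median of 0.40 on day 7 over day 5 and the common subunits of complex IV have 0.08.

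Genes with several probe sets show how far probe sets of one gene differ on the same arrays. They do not show the spread between arrays or RNA preparations. Of 74 further probe sets of the members that were above the floor on days 1 and 7, 67 differed in the same direction as the chosen one. Pooled over members, the SD between probe sets was 0.28, 0.26 and 0.16 on the log2 scale at the 3 steps and 0.46 for day 7 over day 1. The chosen probe set, the brightest, often had the smaller difference: of 54 further probe sets with a mean signal of 1000 or more, 41 had a larger fold for day 7 over day 1. In Ndufs8, Ndufv2 and Uqcr10 such a probe set was over 1.5 times above the chosen one. Across the 74 members of that signal the log2 difference of day 7 over day 1 was lower where the mean log2 signal was higher (Pearson's r = -0.46, Spearman's rho = -0.52, across genes that share the 4 arrays and are not independent). At single steps, probe sets of one gene also differed in direction at high signal, in Atp5pb, Ndufb11, Ndufb7, Ndufs8 and Uqcrh between days 1 and 4 and in Cox5a, Cycs, Ndufa12 and Ndufb6 between days 5 and 7. The spread between repeated arrays and between cultures was not measured.

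The start regions of the genes were searched for the binding letters of 4 factors known to act on respiratory genes: NRF1, the ETS factor GABP, YY1 and the estrogen-related receptors (ERR). RefSeq start sites of the GRCm38.p6 build were found for 75 of the 92 genes, in 80 windows that reach from 250 bases before the start to 50 after it, and both strands were read. The NRF1 motif, a string of 10 letters, was present in 22.5% of member windows, in 4.6% of all 32851 windows and in 12% of windows of genes with a mean signal of 1000 or more. The GABP letters CCGGAAG were present in 23.8%, 8.86% and 19.7% of the same sets, the YY1 letters AAGATGGCG in 8.75%, 1.4% and 3.4%, and the ERR letters AAGGTCA in 10%, 4.72% and 3.24%. The last 3 letters of CCGGAAG are the first 3 of AAGATGGCG and of AAGGTCA, so neighbouring matches could share bases, but each string was counted on its own. At least 1 string was found in 38 of the 75 genes, at least 2 kinds in 11, and 3 kinds in Sdhd and Atp5k. Of 19 matched genes that were at least 2-fold higher on day 7 than on day 1, 6 had the NRF1 letters, 4 the GABP letters, 1 the YY1 letters and 1 the ERR letters. Among all 75 matched genes these counts were 17, 19, 7 and 8 in the same order. Whether a string goes with the size of a difference was not tested. A match is a string of letters and not a measured binding site.

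Complex I, NADH dehydrogenase, is the largest complex of the chain, and its core subunits carry the flavin and the iron-sulphur clusters. All 6 measured core genes were higher at every step (10.9% of all genes), with a median log2 difference of 0.91 between days 7 and 1. Ndufs1, the large iron-sulphur subunit, had signals of 842, 1259, 1494 and 1728 on days 1, 4, 5 and 7, a 2.05-fold difference. It was the only one of the 6 at 2-fold on the chosen probe sets (12.7% of all genes). Ndufv1, which binds NADH and flavin, had 1366, 1758, 2322 and 2531 (1.85-fold). Its partner Ndufv2 had 2963, 4014, 5158 and 5718 (1.93-fold). Both genes passed 2-fold on their other 2 probe sets, at 2.56-fold and 2.13-fold for Ndufv1 and at 4.14-fold and 2.52-fold for Ndufv2. In these 3 genes the step from day 5 to day 7 was the smallest of the 3 steps. Ndufs3, in the arm that reaches into the matrix, had 1886, 2198, 2471 and 3298 (1.75-fold). Ndufs7, which holds the cluster next to ubiquinone, had 1954, 2452, 2899.5 and 3709.9 (1.90-fold, and 2.10-fold on its other probe set). Their steps from day 5 to day 7 were the 2 largest of the core genes, 1.33-fold and 1.28-fold. Ndufs8 had 4992, 5025, 5368 and 6097, only 1.22-fold, but 4 of its other 5 probe sets differed by between 1.49-fold and 2.38-fold upward and 1, of low signal, was 1.10-fold lower. Its first step, 0.01 on the log2 scale, turned negative after either scaling.

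The accessory subunits surround the core and are needed for its assembly and stability. Of 27 measured genes all 27 were higher on day 7 than on day 1 (50.3% of all genes), with a median of 0.82. At least 1.5-fold higher were 18 (24.3% of all genes) and at least 2-fold higher 10 (12.7%). The largest difference was that of Ndufb6, with signals of 1969.7, 3664, 5489 and 5112 and thus a peak on day 5 (2.60-fold for day 7 over day 1). Its second probe set was highest on day 7 instead. Ndufab1, which is also the acyl carrier protein of mitochondrial fatty acid synthesis, had 2009, 3606, 4711 and 5211 (2.59-fold), with a low probe set (72.7, 88.8, 44.6 and 36.5) of opposite direction. Ndufc1 had 3548, 4718, 6741 and 7986 (2.25-fold). These genes had most of their difference by day 5. Ndufb5 had 2409.8, 3830.0, 4666 and 5372 (2.23-fold). For Ndufa10 the signals were 2366, 3234, 4266 and 5189.6 (2.19-fold). The other accessory genes at 2-fold, Ndufa2, Ndufa5, Ndufa8, Ndufa12 and Ndufb10, lay between 2.03-fold and 2.15-fold, and the remaining 17 between 1.20-fold and 1.95-fold. At the low end Ndufa6 had 2764, 2839, 2796 and 3328 (1.20-fold). Next to it Ndufa1 had 6192, 7139, 7165 and 7601 (1.23-fold). Ndufb1 was an exception in its course, with a lower signal on day 4 than on day 1, at 281, 222, 419 and 377. It then had the largest step from day 4 to day 5 of all members above the floor on both arrays, 1.89-fold.

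The assembly factors build complex I without staying in it as a subunit. All 8 were higher on day 7 than on day 1 (50.3% of all genes), with a median of 0.85. At least 1.5-fold higher were 6 (24.3% of all genes) and at least 2-fold higher 3 (12.7%). Ndufaf6 had signals of 105, 172, 300.0 and 349 (3.33-fold). Ndufaf5, which hydroxylates Ndufs7, had 156, 261, 389.8 and 464 (2.98-fold). Both were higher at every step. Ndufaf4 had 455, 1005, 1469 and 1023, 2.25-fold higher at the end but with its peak on day 5 and a 1.44-fold lower signal on day 7. Its second probe set had the same shape, at 194, 398, 546 and 433. Ndufaf2 also peaked on day 5, at 247, 339, 539 and 484. The other 4 had smaller differences. Ndufaf1 had 413, 518, 678 and 685 (1.66-fold). Ndufaf8 had 1062, 1140.5, 1402 and 1713 (1.61-fold). Ndufaf3 had 717, 743, 719.9 and 950.2 (1.32-fold), all of it after day 5. Ndufaf7, a methyltransferase, had 213, 192, 207 and 256 (1.21-fold).

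**Figure D3:**
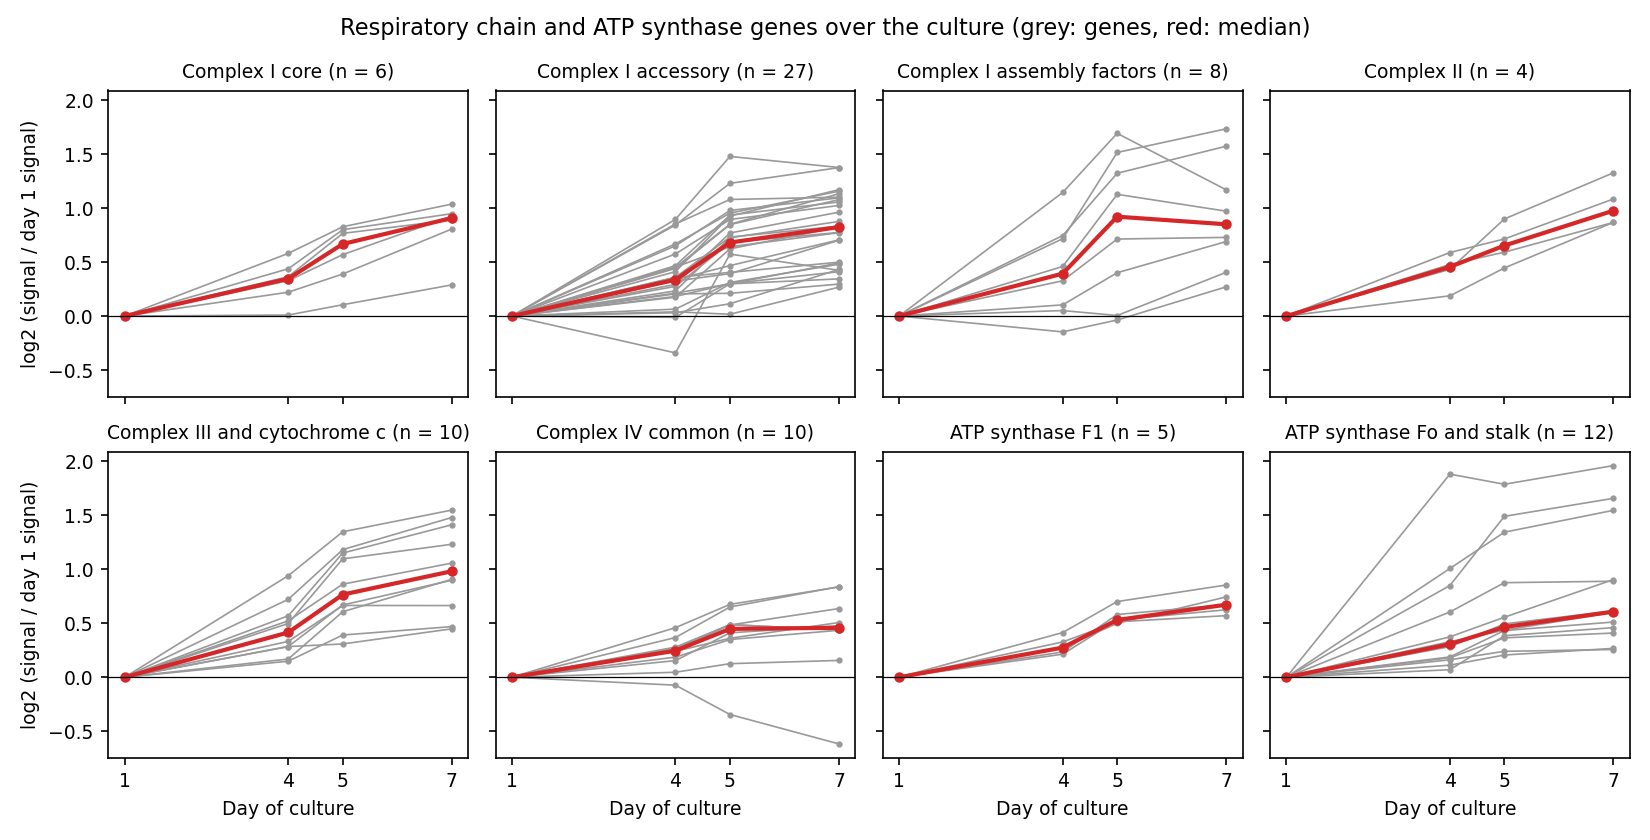
Log2 ratio of each gene's signal to its day 1 signal over the days of culture, by complex. Grey lines are genes above the floor on all 4 arrays and red lines the median of each panel. The panel of complex III and its red line include cytochrome c, and without it the median on day 7 is 1.06. For the common subunits of complex IV the median on day 7 is 0.46, and the line below 0 there is Cox7c.

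Complex II, succinate dehydrogenase, is the entry point shared with the citric acid cycle and is made of nuclear subunits alone. All 4 genes were higher at every step (10.9% of all genes), all 4 at least 1.5-fold between days 7 and 1 (24.3%), with a median of 0.98. Sdha, the flavoprotein that oxidises succinate, had signals of 2571, 3580.3, 3875 and 4689 (1.82-fold). Sdhb, which carries the iron-sulphur clusters, had 3892, 4432, 5301 and 7104 (1.83-fold). Both of these subunits face the matrix. The membrane anchor Sdhc had 1094, 1645, 1794 and 2319 (2.12-fold). The other anchor, Sdhd, had 1769.8, 2389, 3301 and 4439.7 (2.51-fold), the largest difference of the complex. The late step of this complex had the highest median of the groups: from day 5 to day 7 the 4 genes were 1.21-fold, 1.34-fold, 1.29-fold and 1.34-fold higher in the order above, a median of 0.40 where the other groups of complexes lay between 0.08 and 0.23. That median was 0.42 after quantile normalization and 0.57 after median scaling, the highest of the 8 groups (complex I core, accessory and assembly genes, complexes II and III, common subunits of complex IV, F1 and Fo) each time. It was 0.22 when all probe sets of a gene were averaged, below the 0.23 of the complex I assembly factors, with further probe sets of Sdha, Sdhc and Sdhd entering the mean. That of Sdhc had 583, 689.9, 874 and 728 and was lower on day 7 than on day 5. Whether the complexes differ could not be tested with 1 array a group.

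Sdhd is shown because its start region is that of a member with 3 of the 4 letter strings. The sequence is the 250 bases before the start on the minus strand of GRCm38.p6, chr9:50603850-50604099, from RefSeq, with the NRF1 letters (starting at position -79) and the GABP letters on the opposite strand (at -46) in capitals. The ERR letters lie after the start, at 36, outside the printed bases.
Sdhd: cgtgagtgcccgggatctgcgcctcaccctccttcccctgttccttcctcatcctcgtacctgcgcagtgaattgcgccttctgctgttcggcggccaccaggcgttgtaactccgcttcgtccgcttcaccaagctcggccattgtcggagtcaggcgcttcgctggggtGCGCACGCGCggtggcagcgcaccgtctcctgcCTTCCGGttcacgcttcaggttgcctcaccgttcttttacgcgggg

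Complex III takes electrons from ubiquinone to cytochrome c. Its 9 genes were all higher at every step, 7 at least 1.5-fold and 5 at least 2-fold between days 7 and 1, and its median of 1.06 was the highest of the 8 groups. The order of the top groups depends on the processing, since complex I assembly factors (0.98) came above complex III (0.85) after quantile normalization, and other groups also did when probe sets that may match several transcripts were left out. Uqcr11, a small membrane subunit, had signals of 1946, 3735, 4953 and 5692 (2.92-fold). Uqcr10, another, had 1692, 2789.6, 3839 and 4717 (2.79-fold). Its other 2 probe sets, of lower signal, were 3.93-fold and 5.74-fold higher. On the chosen probe sets these were the largest differences of the complex. Uqcrfs1, the Rieske iron-sulphur protein, had 1654, 2453, 3670.1 and 4401 (2.66-fold). Cyc1, the gene of cytochrome c1, had 2213, 3125, 4733 and 5197 (2.35-fold). These electron carriers were followed by the core proteins, which bear no redox group. Uqcrc1 had 3276, 3989.7, 5209 and 6105 (1.86-fold). Uqcrc2 had 2859, 3214, 4354 and 5359.8 (1.87-fold). Uqcrq had 2632, 3779.9, 4784 and 5476 (2.08-fold) on a probe set that matches several transcripts, while its other 3 probe sets were near or below the floor, the highest on day 1 at 36.2, 32.0, 25.7 and 34.7. The smallest differences of the complex were those of Uqcrb and Uqcrh. Uqcrb had 12083, 13393, 15846 and 16721 (1.38-fold). Uqcrh, the hinge protein, had 4640.2, 5649, 5746 and 6332 (1.36-fold). Cycs, the mobile carrier cytochrome c, had 6907, 8694, 10951 and 10944, 1.58-fold higher on day 7 than on day 1 and level between days 5 and 7. Of its other 3 probe sets 1 was below the floor, and the other two were 2.20-fold and 2.19-fold higher on day 7 than on day 1 and slightly higher than on day 5.

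Complex IV, cytochrome c oxidase, has a catalytic core encoded in mitochondrial DNA and a nuclear shell, of which several subunits exist as a common and a tissue isoform. The common subunits had the lowest median of the 8 groups between days 7 and 1, 0.46, and it was the lowest under each of the 9 alternative settings too, between 0.32 and 0.60. These genes have some of the brightest probe sets of the members, and the part of brightness in their low median was not tested. Of the 10 genes 9 were higher (50.3% of all genes), and 3 of them at least 1.5-fold (24.3%). That count was close to the share of 29.3% among all genes with a mean signal of 1000 or more. Ndufa4, formerly assigned to complex I, had 4349, 5612, 6828 and 7779 (1.79-fold). Cox8a had 3152, 4333, 5032 and 5628 (1.79-fold). Cox7a2 had 7797, 9285, 10906 and 12117 (1.55-fold). These 3 were higher at every step. Cox4i1, the regulatory subunit, had 7448, 8795, 9567 and 10582 (1.42-fold). Cox5b had 7172, 7979.9, 9539 and 9980.0 (1.39-fold). Cox6b1 had 8356, 9507, 10646 and 11295 (1.35-fold). The size was much the same in Cox5a and Cox6c, but both peaked on day 5. Cox5a had 9206, 11073, 12902 and 12484 (1.36-fold). Cox6c had 6568, 7969.7, 9209.8 and 8878 (1.35-fold). They were lower on day 7 than on day 5, with log2 differences of -0.05 and -0.05 that turned positive after median scaling. Cox6a1 had 10020.3, 10346, 10932 and 11162 (1.11-fold), while its other probe set had 4702, 5580.3, 7039 and 7794 (1.66-fold). Further probe sets were also higher by more than the chosen one for Cox7a2 (1.87-fold) and Cox6c (1.60-fold), and for Cox5b up to 1.85-fold. Cox7c had 99.5, 94.6, 78.3 and 64.9 (1.53-fold lower), but both of its probe sets had low signals and they give little measure of this common subunit.

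The tissue isoforms had low signals and went separate ways. Cox6a2, the heart and muscle partner of Cox6a1, had 328, 108, 40.8 and 91.5: 3.04-fold lower on day 4 than on day 1, a further 2.65-fold lower on day 5, and then 2.25-fold higher on day 7. Its second probe set was above the floor on day 1 alone, at 67.9. Cox7a1, the heart and muscle partner of Cox7a2, had 43.9, 80.6, 103 and 242, 5.50-fold higher on day 7 than on day 1 and the largest difference of all members, from a signal close to the floor. Of 8 muscle markers 3 were above the floor on each array, and their sum was 191, 189.5, 209.5 and 239.7, with Tnnt3, Tnnc2, Myh4 and Myh7 below the floor throughout. Of 4 adipocyte markers 3 were above the floor on each array, with Cidec below it throughout. Their sum was 9518, 17054, 15158 and 14302, most of it from Lpl, with 6231, 11682, 11931 and 11903. Fabp4 had 3241, 5134, 2770 and 1842. Adipoq had 44.9, 235, 452 and 554 and was the only one of the 4 that was higher at every step. Cox7a1 shared that course, as did markers of other cells, among them Acp5 and Ctsk (osteoclast) and Cxcl12 and Mgp (stroma). Not all markers of those lists did. The part of these cells in the Cox7a1 signal was not tested. On day 1, where Cox6a2 was highest, the erythroid, neutrophil, B cell and T and NK cell marker sums were highest as well, and their part was not tested. Cox6b2, the testis partner of Cox6b1, had 151, 59.8, 57.7 and 87.8 (1.72-fold lower on day 7 than on day 1). Cox8c, also a testis isoform, had 74.1, 109.6, 112 and 91.7, with a second probe set of opposite direction at 48.7, 32.0, 50.6 and 33.9. Ndufa4l2, a hypoxia-responsive relative of Ndufa4, had 14.6, 17.8, 48.9 and 11.5 and was at least 1.51-fold higher on day 5 than on day 4. Cox7a2l, listed with these isoforms as a related gene, had 3142, 3647, 3242 and 4321 (1.38-fold), with its step on day 7 (1.33-fold over day 5). Its other 2 probe sets had the same last step, 1.29-fold and 1.30-fold.

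**Figure D4:**
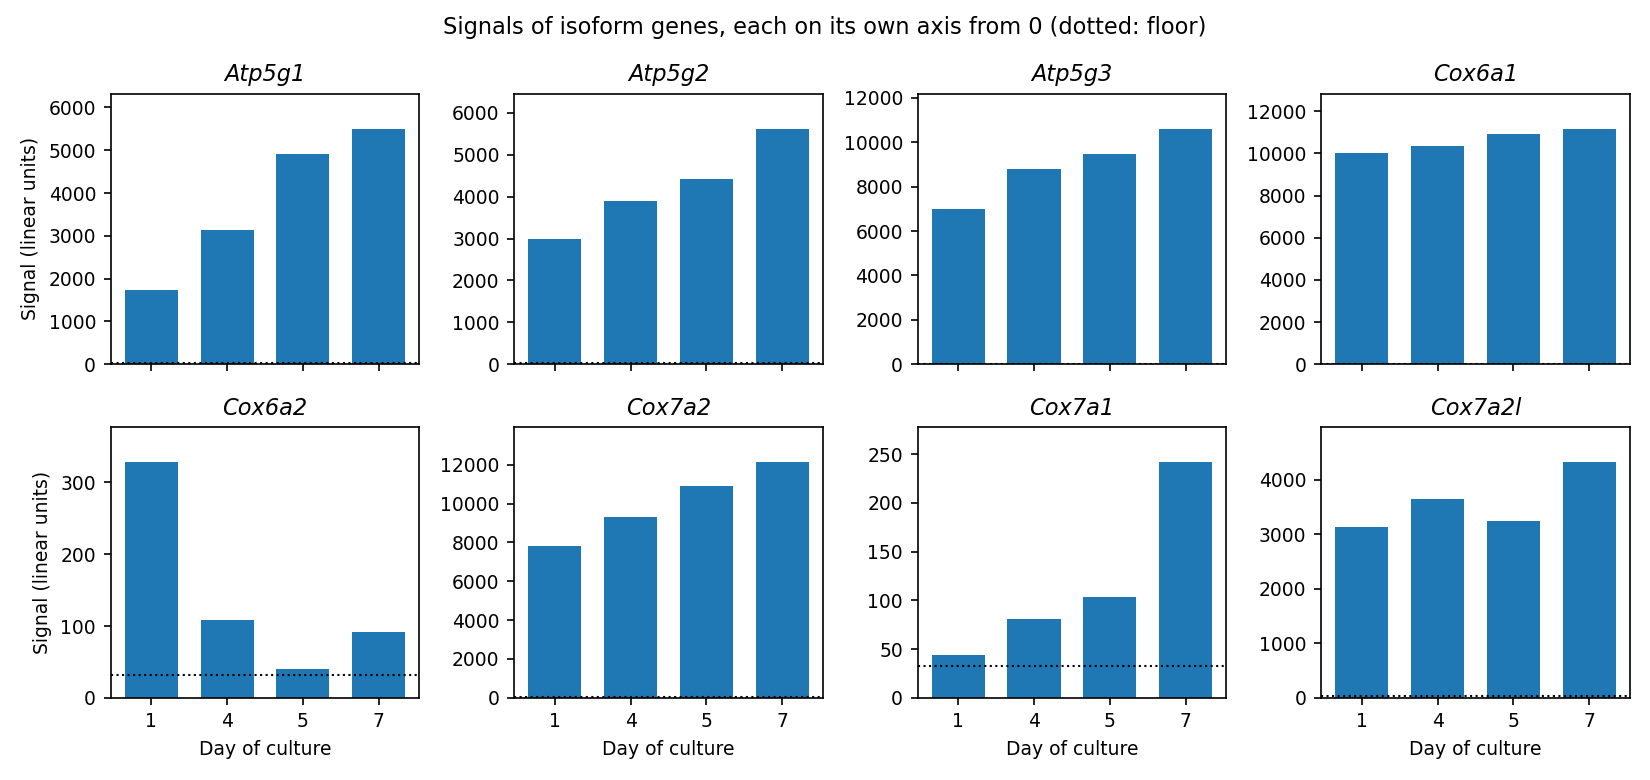
Signal in linear units on the arrays of days 1, 4, 5 and 7 for 8 isoform genes, each with its own axis from 0 and the floor of 32.4 dotted. Atp5g1 ends 3.15-fold above day 1 where Atp5g3 ends 1.52-fold above it, Cox6a2 is highest on day 1 and Cox7a1 on day 7.

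ATP synthase makes ATP in its F1 head, and the 5 genes of F1 kept close together. All 5 were higher at every step (10.9% of all genes), by between 1.48-fold and 1.81-fold from day 1 to day 7. Atp5b, the catalytic beta subunit, had 6048, 7012, 8736 and 9325 (1.54-fold). Atp5a1, the alpha subunit, had 4520.1, 5316, 6762 and 7201 (1.59-fold). The other 3 genes encode the central stalk that turns inside the head. Atp5c1 had 6451, 7803, 9121 and 10804 (1.67-fold). Atp5d had 3679.9, 4902, 5982 and 6652 (1.81-fold). Atp5e had 3522, 4418, 5027 and 5230.1 (1.48-fold). For Atp5c1 the direction depends on the probe set: the chosen one may match several transcripts, and another had signals of 187, 114, 49.5 and 29.2 and was lower at every step.

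The membrane and side stalk part, Fo, varied far more, from 1.19-fold to 3.89-fold, although all 12 genes were higher on day 7 than on day 1. Of these 12, 7 reached 1.5-fold (24.3% of all genes) and 3 reached 2-fold (12.7%), with a median of 0.61. Atp5md, a small subunit that stabilises dimers of the enzyme, had signals of 1346, 4958, 4645 and 5237, so nearly all of its 3.89-fold difference lay before day 4. Atp5o, which links the side stalk to F1, had 2535, 5097, 6432 and 7403 (2.92-fold), with a second probe set 2.01-fold higher. The other side stalk genes differed less. Atp5j had 3628, 5516, 6658 and 6720.1 (1.85-fold). Atp5pb had 7547, 8551, 9719.5 and 10023 (1.33-fold). Atp5h had 7401, 7998, 8537 and 8907 (1.20-fold). The small membrane subunits Atp5l, Atp5k, Atp5j2 and Atp5mpl were 1.53-fold, 1.43-fold, 1.38-fold and 1.19-fold higher.

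The proton-carrying ring is built of subunit c, whose identical mature protein is encoded by 3 genes. Atp5g1 had signals of 1744, 3143, 4901 and 5501 on days 1, 4, 5 and 7. Atp5g2 had 3001, 3889, 4411 and 5618. Atp5g3 had 6993, 8785, 9462 and 10600.2. Each of the 3 was higher at every step, by 3.15-fold, 1.87-fold and 1.52-fold in all. The genes differed in timing as well: Atp5g1 had its steps early (1.80-fold to day 4 and 1.56-fold to day 5), whereas Atp5g2 had a last step (1.27-fold from day 5 to day 7) nearly as large as its step to day 4 (1.30-fold). From day 5 to day 7 Atp5g1 was 1.12-fold and Atp5g3 1.12-fold higher. The step of Atp5g3 from day 4 to day 5, 1.08-fold, turned negative after quantile normalization.

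The start regions of these genes are shown because the same protein comes from 3 promoters that differ in the strings they hold, and that of Atp5k because it holds 3 kinds of string. Each is the 250 bases before the start in GRCm38.p6 from RefSeq, all on the minus strand, with matches in capitals. Atp5g1 (chr11:96075632-96075881) had none of the 4 strings. Atp5g2 (chr15:102671048-102671297) had the NRF1 letters at -42. Atp5g3 (chr2:73911327-73911576) had the ERR letters on the opposite strand at -52 and the NRF1 letters after the start, at 12. Atp5k (chr5:108434400-108434649) had the NRF1 letters at -50, and the GABP and ERR letters after the start, at 12 and 23.
Atp5g1: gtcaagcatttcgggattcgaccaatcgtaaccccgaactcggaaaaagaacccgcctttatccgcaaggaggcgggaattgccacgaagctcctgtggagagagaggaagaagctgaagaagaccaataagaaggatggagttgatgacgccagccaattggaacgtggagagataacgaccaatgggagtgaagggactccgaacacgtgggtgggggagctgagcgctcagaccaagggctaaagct
Atp5g2: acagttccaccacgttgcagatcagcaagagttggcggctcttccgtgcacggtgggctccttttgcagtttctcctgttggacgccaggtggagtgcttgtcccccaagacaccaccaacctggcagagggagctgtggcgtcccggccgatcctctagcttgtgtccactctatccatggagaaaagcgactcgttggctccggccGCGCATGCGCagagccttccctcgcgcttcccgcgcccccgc
Atp5g3: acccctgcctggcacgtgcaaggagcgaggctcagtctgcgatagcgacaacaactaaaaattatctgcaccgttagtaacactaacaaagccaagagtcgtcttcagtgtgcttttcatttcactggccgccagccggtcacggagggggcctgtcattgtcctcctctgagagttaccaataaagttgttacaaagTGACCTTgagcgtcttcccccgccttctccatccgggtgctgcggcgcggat
Atp5k: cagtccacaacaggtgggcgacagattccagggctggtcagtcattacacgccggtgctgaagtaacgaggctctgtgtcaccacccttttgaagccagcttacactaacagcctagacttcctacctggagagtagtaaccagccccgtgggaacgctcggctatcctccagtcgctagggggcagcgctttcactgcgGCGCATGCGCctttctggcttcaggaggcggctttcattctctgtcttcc

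Genes that serve the chain outside the symbol rule were summarised from lists. Of 16 genes of the citric acid cycle and pyruvate dehydrogenase, 15 were 1.5-fold or more higher, and 10 of them 2-fold or more, on day 7 than on day 1, with a median of 1.06. Idh3a, a subunit of the NAD-dependent isocitrate dehydrogenase, had 1251, 1989.7, 3726 and 3984 (3.18-fold). Fumarase, Fh1, which acts right after complex II, had 1179, 2235, 2997 and 3725 (3.16-fold). The median was 0.86 for 10 genes of ubiquinone synthesis, 6 of them at least 1.5-fold higher. Coq8a had 69.4, 102, 204 and 669.8 (9.65-fold), with its largest step after day 5. Of 8 other enzymes that feed ubiquinone, 3 were at least 1.5-fold higher and 4 lower (median -0.11). Etfa, of fatty acid oxidation, had 1419.5, 2127, 2560.2 and 3369. Prodh, of proline breakdown, had 226, 114, 104 and 46.4. Chdh, of choline breakdown, had 502, 76.7, 32.1 and 13.5. The first of these was thus highest on day 7 and the other two on day 1. Of 6 measured carriers and channels for ADP, phosphate and nucleotides, 3 were at least 1.5-fold higher and 0 lower (median 0.60). The ADP/ATP carrier Slc25a4 had 1648, 4629, 6353 and 6678 (4.05-fold). The outer membrane channel Vdac1 had 2421, 4689, 5651 and 6217 (2.57-fold). Assembly factors outside the rule had a median of 0.59, with 19 of 37 at least 1.5-fold higher, among them Nubpl, which inserts iron-sulphur clusters into complex I, with 157, 454, 551 and 604 (3.84-fold).

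For scale, 24.3% of all genes were at least 1.5-fold higher on day 7 than on day 1 and 25.9% at least 1.5-fold lower. Of 76 mitochondrial ribosomal protein genes 66 were at least 1.5-fold higher, with a median of 0.89 beside 0.77 for the members. Their largest step was from day 4 to day 5, with a median of 0.49 where the members had 0.26. Of 16 measured V-ATPase subunits 11 were at least 1.5-fold higher and 2 lower, with a median of 0.67, led by Atp6v0d2 with 397, 3676, 3832 and 5301 (13.3-fold). The 43 measured cytosolic ribosomal protein genes had a median of 0.15, with 5 at least 1.5-fold higher and 1 lower, both below the shares among all genes. The subunit ND5, of complex I and encoded in mitochondrial DNA, was the only such gene with a named probe set, and it had 4767, 5196, 1750.0 and 1682. It was thus 2.83-fold lower on day 7 than on day 1, opposite to the nuclear core genes of its complex. A single probe set carries that value.

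**Figure D5:**
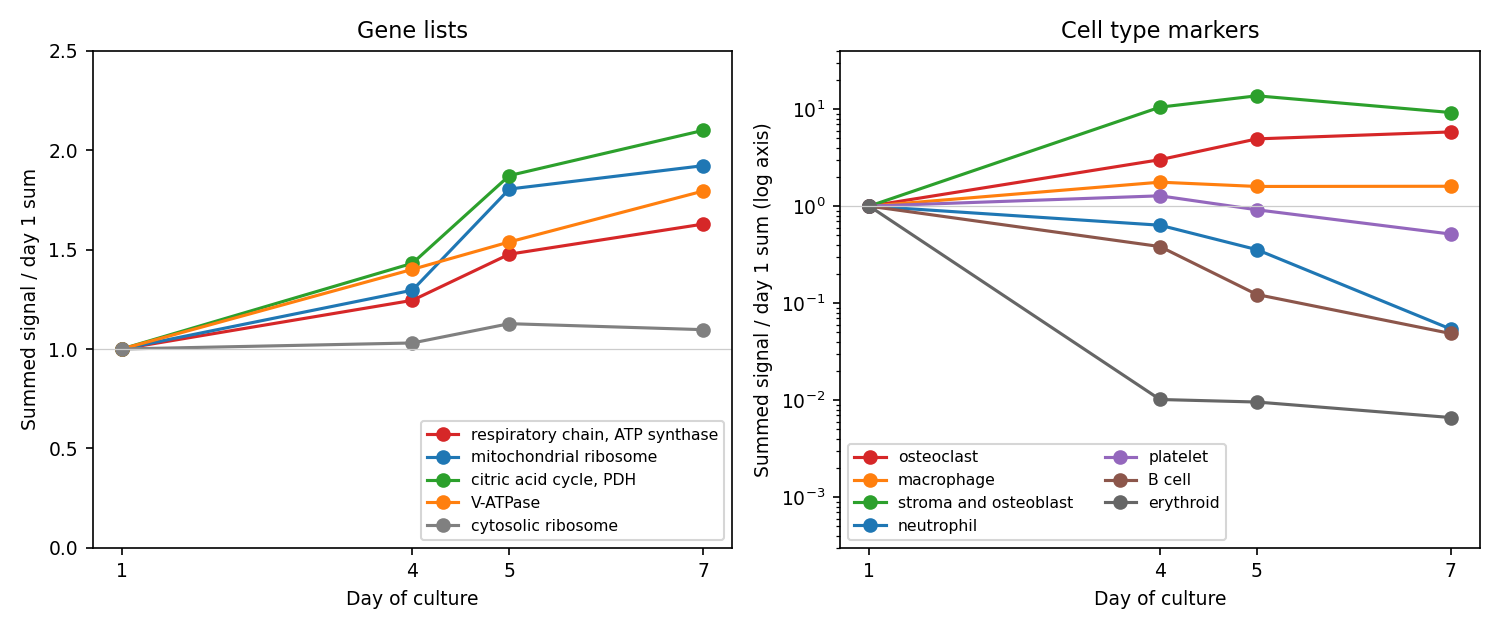
Summed signal of gene lists (left) and of cell type markers (right, log axis) relative to day 1, over the days of culture. The respiratory chain and ATP synthase genes sit between the cytosolic ribosomal genes and the citric acid cycle genes, while erythroid, B cell and neutrophil marker sums are lower and osteoclast and stromal sums higher on the later arrays.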

How the data were processed

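Gene expression was measured on 4 Affymetrix mouse arrays, 1 for each of days 1, 4, 5 and 7. The authors deposited probe set intensity values on a linear scale. The submitters' processing notes name GCOS 1.4 and MAS5, with the scaling target not given in the sources used here. Detection calls were not used here. Probe sets were named from the platform annotation: of 45101, 34945 had 1 gene symbol, 932 had several and 9160 had none, and 64 controls were left out of the gene tables. Differences are log2 ratios of these intensities, with a floor of 32.4 (the median of all non-control values), so differences of low signals are understated. Each gene was represented by its probe set of highest mean log2 signal, and sizes of 1.5-fold and 2-fold were counted in 5 comparisons, over the genes above the floor on at least 1 of the arrays compared. With 1 array a group there was no test, and the number of arrays limits the precision. A fold given for a gene below the floor on 1 array is a lower bound.

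Members and lists were chosen with earlier results of these data known. All members could be named: the core genes, complex II, the electron carriers, the F1 and c subunit genes and the isoform pairs with their 4 signals, otherwise those with the largest differences of each complex, and from the other lists the genes with the largest differences. The background of genes with a mean signal of 1000 or more was added after the data were seen. Shares of genes are given beside counts of members, on the same arrays and by the same rule. The alternatives were floors at the 25th, 60th and 75th percentiles of all values, 16 added in place of a floor, quantile normalization, median scaling and 3 other choices of probe set. Protein sequences were not used here. Calculations used Python 3.11.15, numpy 2.4.6, pandas 2.3.3 and matplotlib 3.10.9, and the counting was tested on simulated data.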

Additional observations from a re-analysis of the deposited data

How the results depend on the processing

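The main statements kept their direction under all 9 alternatives: the members' median difference between days 7 and 1 lay between 0.63 and 0.91 (log2), the number at least 1.5-fold higher between 49 and 67, the number at least 2-fold higher between 18 and 37, the number higher at every step between 56 and 73 and the number highest on day 7 between 68 and 82. The median was 0.26 to 0.33 from day 1 to day 4, 0.13 to 0.26 from day 4 to day 5, 0.32 to 0.60 from day 4 to day 7 and 0.13 to 0.33 from day 5 to day 7, where median scaling gave 0.33. Of 243 pairs of a summary and an alternative, 200 stayed within 1.5 times the count or, for a median, within the SD between probe sets. That SD was no smaller than the median from day 4 to day 5 (0.26 beside 0.26) and from day 5 to day 7 (0.16 beside 0.15). Staying within it says little at those steps. A count has no direction to turn, and the medians of the 5 comparisons were above 0 under every alternative. The other pairs were mostly counts of few genes near the floor. With the floor at the 75th percentile, which removes low signals by construction, 0 members were 1.5-fold or 2-fold lower between days 4 and 1, days 5 and 4 or days 7 and 1, 0 were 2-fold higher between days 7 and 4, and 0 passed 1.5-fold either way, or 2-fold upward, between days 7 and 5. With the floor at the 60th percentile 0 were 2-fold lower between days 5 and 4, and between days 7 and 5 1 was 1.5-fold higher, 1 was 2-fold higher and 0 were 1.5-fold lower. With the floor at the 25th percentile 2 were 1.5-fold lower and 1 was 2-fold higher between days 5 and 4, 1 was 1.5-fold lower between days 7 and 4 and 1 was 2-fold lower between days 7 and 5. With 16 added in place of a floor 1 was 2-fold higher between days 7 and 4, and between days 7 and 5 1 was 2-fold higher and 1 was 2-fold lower. Quantile normalization left 1 member 1.5-fold lower between days 7 and 1 and 15 members 1.5-fold higher between days 7 and 4. Median scaling gave 44 members 1.5-fold and 4 members 2-fold higher between days 7 and 4, and between days 7 and 5 it gave 7 that were 1.5-fold higher and 0 that were lower. With the mean over all probe sets 0 were 2-fold lower between days 5 and 4, 1 was 1.5-fold lower between days 7 and 4 and 1 was 2-fold higher between days 7 and 5. Without probe sets that may match several transcripts, and also when a plain probe set was preferred, 2 members were 1.5-fold and 2 were 2-fold lower between days 5 and 4, 2 were 2-fold lower between days 7 and 1, 1 was 2-fold lower between days 7 and 4 and 2 were 1.5-fold lower between days 7 and 5; 1.5-fold lower between days 7 and 4 were 1 and 2 members in that order. Among differences of single genes or groups of at least 1.5-fold, 5 turned direction, in 9 combinations of a gene and an alternative, each of them another choice of probe set. Smaller differences also turned under the scalings, the most between days 5 and 4, where quantile normalization turned 16 members. Between days 7 and 1 the mean over probe sets gave -0.89 for Atp5c1, -0.35 for Dlst and -0.029 for Slc25a3. Without multiply matching probe sets, and with plain ones preferred, Atp5c1 was at -2.53 and Uqcrq at -0.06. With plain ones preferred Slc25a3 was at -0.70 between days 7 and 1 and Idh3b at -0.074 between days 7 and 4. Beyond the probe set itself, the cause was not tested. No paired analysis was possible because each group held 1 array.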
